A study of Homo sapiens with 24 samples.

Results

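Expression of 10 genes of heterotrimeric G protein signalling was followed in B-cell lymphoma cells exposed to a SYK inhibitor, a BET inhibitor or both. The genes were the 8 RGS genes RGS1, RGS2, RGS9, RGS10, RGS13, RGS16, RGS18 and RGS19, the β subunit gene GNB3 and the α subunit gene GNA13. They were selected by symbol from a table of 25575 rows and 25161 gene symbols, and each had 1 row. The selection was made with earlier results of the same arrays in view, in which the levels and changes of these genes over the 8 groups were known, so that their values are a description. The adjusted p-values given for them come from fits over all rows and are no independent evidence that these genes respond.

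RNA was measured on 24 whole-transcriptome microarrays (Clariom D). The cells were SU-DHL-4, a line of diffuse large B-cell lymphoma, and DG-75, a line of Burkitt lymphoma, both established. Each line was exposed for 72 h to DMSO as the solvent control, to 1 µM of the SYK inhibitor Entospletinib (Ento), to 0.01 µM of the bivalent BET inhibitor AZD5153 (AZD), or to both at these doses (Ento+AZD), with 3 replicates per group. Each lymphoma type was represented by 1 line, so that line and lymphoma type cannot be told apart.

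G protein-coupled receptors activate heterotrimeric G proteins by exchanging GDP for GTP on the α subunit, which then separates from the βγ dimer so that both can act on effectors. RGS proteins (regulators of G protein signalling) bind the active α subunit and speed up GTP hydrolysis, which ends the signal. In germinal centre B cells, RGS1 and RGS13 are known to dampen chemokine receptor responses, and Gα13, the product of GNA13, relays signals of S1PR2 and P2RY8 through ARHGEF1 to RHOA and keeps the cells within the follicle. Loss of GNA13 is recurrent in germinal centre-type lymphomas.

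Array medians lay between 4.89 and 5.14 on the log2 scale, and replicate arrays correlated at 0.981 to 0.993 across genes. Precision is limited by the number of arrays. The mean of the 7 B-cell markers lay between 9.69 and 10.28 on the SU-DHL-4 arrays and between 8.40 and 9.33 on the DG-75 arrays, whereas that of the 7 T and NK cell markers lay between 2.66 and 3.11. The mean of the 9 myeloid and platelet markers lay between 3.99 and 4.45. No detection value was used here, and a fall in the share of cells that express a gene and a fall in RNA per cell cannot be told apart. Levels below are log2 normalized intensities. Apart from means and medians of lists, levels of different genes are not compared, since they come from different probes. The values of lists are a rough guide for the same reason. Values given 3 at a time follow the replicate numbers 1, 2 and 3. Called means a fold change above 2 together with an adjusted p below 0.05.

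**Figure D1:**
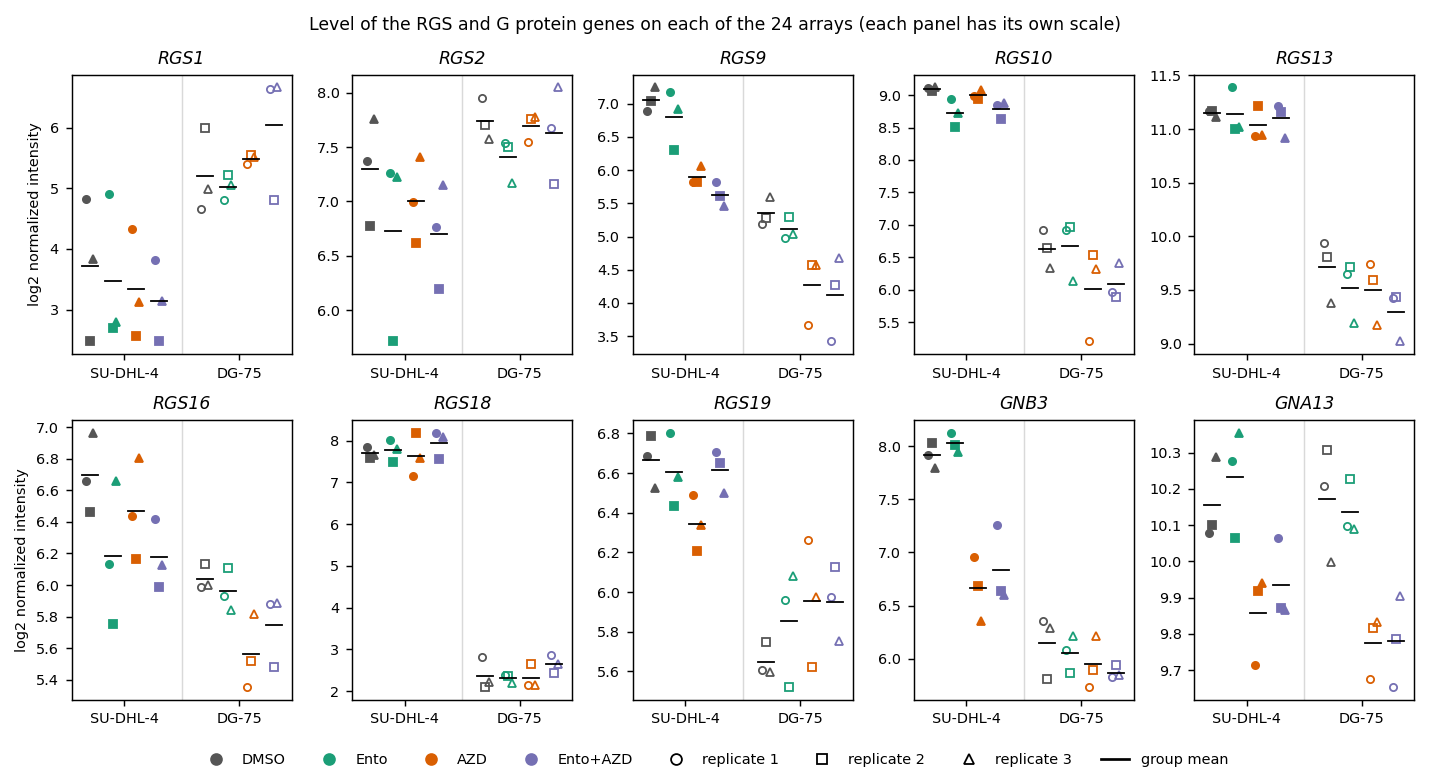
Level of each of the 10 genes on the 24 arrays, as log2 normalized intensity on the y axis, with the 4 treatments of each line side by side, a symbol for each replicate number and a bar for the group mean. RGS9 stood lower on the arrays with AZD in both lines, GNB3 stood lower with AZD in SU-DHL-4, and RGS18 separated the lines, with 7.16 to 8.18 in SU-DHL-4 and 2.10 to 2.86 in DG-75.

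RGS9 was the one gene of the 10 that was called in both lines. Its product belongs to the RGS subfamily that pairs with the atypical β subunit encoded by GNB5 and is best known from photoreceptors and the striatum. In SU-DHL-4, RGS9 stood at 6.88, 7.03 and 7.25 under DMSO, at 7.18, 6.31 and 6.92 under Ento, at 5.82, 5.81 and 6.06 under AZD and at 5.82, 5.61 and 5.46 under Ento+AZD. In DG-75, RGS9 stood at 5.18, 5.28 and 5.60 under DMSO, at 4.98, 5.30 and 5.04 under Ento, at 3.67, 4.57 and 4.57 under AZD and at 3.42, 4.27 and 4.68 under Ento+AZD. All 6 arrays with AZD lay below all 6 arrays without it in each line, a split of the arrays chosen after the values were seen. The same held for 0.938% of all rows in SU-DHL-4 and 5.55% of all rows in DG-75. Ranked by mean, each of the 8 groups overlapped with the next in rank, except for a gap between Ento and AZD cells of SU-DHL-4 and another between Ento and AZD cells of DG-75.

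Under AZD, RGS9 fell by 1.16 in SU-DHL-4 (SE 0.20, limma adjusted p = 0.0396), a 2.23-fold decrease. Of the 10 genes, 2 were called in this comparison, RGS9 and GNB3, beside 0.18% of all rows. In DG-75 the difference of RGS9 under AZD was -1.08 (SE 0.21, limma adjusted p = 0.0646), and 0 of the 10 genes were called by limma beside 0.18% of all rows, with 3 of 10 at an unadjusted p under 0.05 beside 13.8% of all rows. Under Ento+AZD, RGS9 fell by 1.42 in SU-DHL-4 (SE 0.20, limma adjusted p = 0.00567) and by 1.23 in DG-75 (SE 0.21, limma adjusted p = 0.0214). The background for these comparisons was 1.19% of all rows called in SU-DHL-4, where RGS9 and GNB3 were the 2 genes called, and 0.833% in DG-75, where RGS9 was the 1 gene called.

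With both lines in 1 fit, RGS9 fell by 1.12 under AZD (SE 0.14, limma adjusted p = 0.0005) and by 1.33 under Ento+AZD (SE 0.14, limma adjusted p = 2.3e-05). It was the 1 gene of the 10 that was called in each of these fits, beside 0.254% and 0.856% of all rows. The difference of RGS9 between the lines in the response to AZD was -0.08, with a 95% confidence interval of -0.71 to 0.56, so that a different size of response in the lines is not excluded. The calls of RGS9 in both lines together held under 34 of 34 alternatives. The calls within a line depended on single arrays, and that under AZD in SU-DHL-4 also on the fit and the scaling. It was lost without the replicate block (limma adjusted p = 0.0709), after quantile normalization (limma adjusted p = 0.0677), after subtraction of array medians (limma adjusted p = 0.0698) and with the 2 treatments fitted alone (limma adjusted p = 0.0688). Among the arrays, it was lost without DMSO replicate 1, 2 or 3, AZD replicate 1 or 3, Ento replicate 3 or Ento+AZD replicate 1, 2 or 3, at changes of -1.33 to -1.05, and 8 of 24 alternatives kept it. The Ento+AZD call in DG-75 was lost without DMSO replicate 1, 2 or 3 or Ento+AZD replicate 1 or 2, and the one in SU-DHL-4 was lost without DMSO replicate 2 (adjusted p = 0.0526 in limma). With an array or a replicate number left out, 7 of 15 alternatives kept the call in DG-75 and 12 of 15 the one in SU-DHL-4. The highest limma adjusted p was 0.3343 in DG-75 and 0.1244 in SU-DHL-4.

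**Figure D2:**
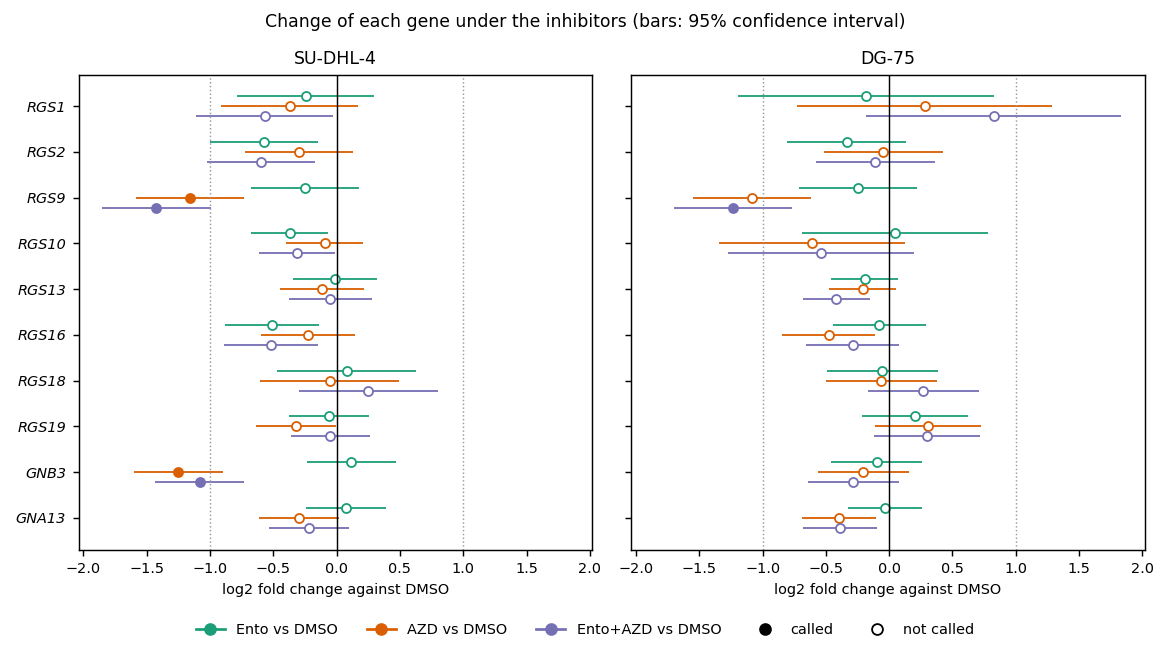
Log2 fold change against DMSO of each gene under Ento, AZD and Ento+AZD, for SU-DHL-4 on the left and DG-75 on the right, with 95% confidence intervals as bars, filled points for called genes and dotted lines at a fold change of 2. The filled points are RGS9 and GNB3 in SU-DHL-4, from -1.42 to -1.08, and RGS9 in DG-75 at -1.23.

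The 2 partners of RGS9 among the genes compared did not pass the threshold. GNB5, whose product stabilizes RGS9, differed by -0.09 under AZD and -0.18 under Ento+AZD in SU-DHL-4 and by -0.32 and -0.29 in DG-75. RGS9BP, which anchors RGS9 to the membrane, differed by 0.18 under AZD and by 0.14 under Ento+AZD in SU-DHL-4 and by 0.01 and -0.17 in DG-75.

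GNA13 lies next to RGS9 on chromosome 17 in the RefSeq annotation of GRCh38.p14, with no other protein-coding gene between them and on the opposite strand. In SU-DHL-4, GNA13 stood at 10.08, 10.10 and 10.29 under DMSO, at 10.28, 10.06 and 10.35 under Ento, at 9.71, 9.92 and 9.94 under AZD and at 10.06, 9.87 and 9.87 under Ento+AZD. In DG-75, GNA13 stood at 10.21, 10.31 and 10.00 under DMSO, at 10.10, 10.23 and 10.09 under Ento, at 9.68, 9.82 and 9.83 under AZD and at 9.65, 9.79 and 9.90 under Ento+AZD. The 6 arrays with AZD lay below the 6 without it in DG-75, as held for 5.55% of all rows there. In SU-DHL-4 the ranges overlapped at 10.06. In each line the differences were small, at -0.30 under AZD and -0.22 under Ento+AZD for SU-DHL-4 and at -0.40 and -0.39 in DG-75, and none of these passed the threshold. With both lines in 1 fit, the difference of GNA13 was -0.35 under AZD (SE 0.09, limma adjusted p = 0.0252) and -0.31 under Ento+AZD (limma adjusted p = 0.0315), past the p threshold and under the fold minimum. The DMSO levels of GNA13 differed between the lines by -0.02, with a 95% confidence interval of -0.29 to 0.25.

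RGS9 and GNA13 went together across the arrays. After subtraction of each line's mean, their levels correlated at r = 0.854 over 24 arrays (Spearman 0.843), at 0.844 within SU-DHL-4 and 0.865 within DG-75. Without the 2 arrays of RGS9 farthest from its median the value was 0.811. Within groups, after subtraction of each group's mean, it was 0.608. GNA13 was number 87 of 25160 genes by likeness to RGS9, and RGS9 was number 66 by likeness to GNA13. The arrays share their treatment groups and their scaling, so that these values describe the arrays and were given no test. AXIN2, the neighbour on the other side of RGS9 and an inhibitor of WNT signalling, correlated with RGS9 at 0.344 and at 0.483 within groups. LRRC37A3 on the other side of GNA13 correlated with it at 0.166 and at 0.175 within groups. Under Ento+AZD, AXIN2 differed by -0.23 in SU-DHL-4 (limma adjusted p = 0.711) and by -0.52 in DG-75 (limma adjusted p = 0.191). AXIN2 stood at 1.90 to 3.48 over all arrays, with no background level available. No direction is therefore read from AXIN2, and its correlation with RGS9 is uncertain. RGS9 also correlated at 0.693 with GNB3, a gene of chromosome 12, and at 0.191 within groups. Its correlation with CDCA3, which overlaps GNB3, was 0.738 and 0.508 within groups.

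**Figure D3:**
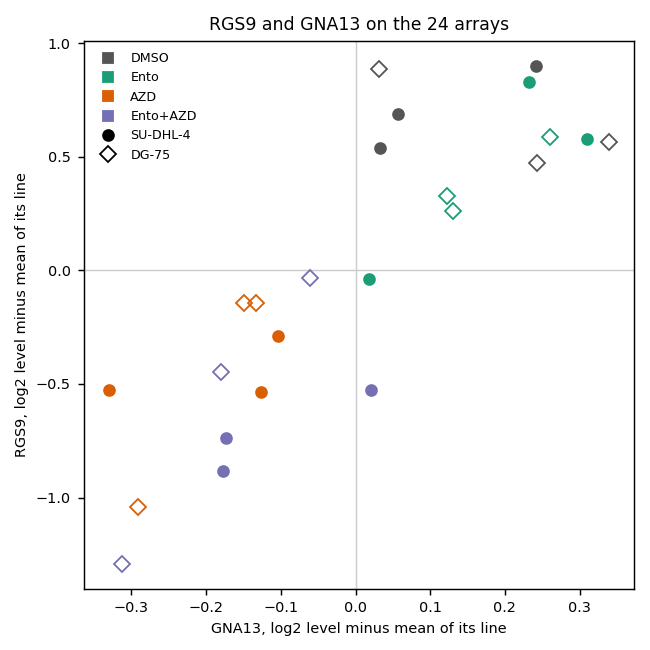
Level of RGS9 on the y axis against that of GNA13 on the x axis for the 24 arrays, each as log2 level minus the mean of its line, with a colour for each treatment and filled circles for SU-DHL-4. Most arrays with AZD lie at the lower left and most of those without it at the upper right, with r = 0.854. The exceptions are the SU-DHL-4 arrays Ento replicate 2 and Ento+AZD replicate 1, which lie at the lower right.

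The sequences before the outermost RefSeq starts of this pair are shown because the genes are neighbours whose levels went together. Each run holds the 250 bases before the start, read 5′ to 3′ on the strand of the gene, from RefSeq on GRCh38.p14. The window of RGS9 is chr17:65137120-65137369 on the plus strand, and that of GNA13 is chr17:65056741-65056990 on the minus strand. Capitals mark matches, on either strand, to the E-box CACGTG, the cyclic AMP response element TGACGTCA, the TATA box TATAAA, the CCAAT box CCAAT or the GC box GGGCGG, which do not overlap in these windows.
RGS9: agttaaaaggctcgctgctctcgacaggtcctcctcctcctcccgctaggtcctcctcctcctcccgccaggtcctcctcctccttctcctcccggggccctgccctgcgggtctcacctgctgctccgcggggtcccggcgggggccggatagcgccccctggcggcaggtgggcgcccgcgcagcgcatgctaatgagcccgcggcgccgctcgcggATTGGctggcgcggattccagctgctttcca
GNA13: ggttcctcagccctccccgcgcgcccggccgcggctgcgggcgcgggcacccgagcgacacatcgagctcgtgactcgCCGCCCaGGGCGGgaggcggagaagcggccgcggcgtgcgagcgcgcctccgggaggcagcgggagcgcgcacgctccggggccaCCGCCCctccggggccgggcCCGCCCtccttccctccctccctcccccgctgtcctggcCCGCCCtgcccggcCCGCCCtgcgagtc
The window of RGS9 held 1 CCAAT box match, on the opposite strand, and none of the other motifs. That of GNA13 held 6 GC box matches and none of the other motifs. GC made up 71.6% of the RGS9 window and 82.0% of the GNA13 window, beside a median of 58.0% over 35116 promoter windows of this length. Of those windows, 32.0% held a CCAAT box, 42.6% a GC box, 6.3% an E-box, 1.6% a cyclic AMP response element and 10.7% a TATA box. A match is a stretch of letters and not a measured binding site, and sequences of GNB3 were not analysed here.

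GNB3 fell under AZD in SU-DHL-4 and was not called in DG-75. It encodes a G protein β subunit known from cone photoreceptors. In SU-DHL-4, GNB3 stood at 7.92, 8.03 and 7.80 under DMSO, at 8.12, 8.01 and 7.95 under Ento, at 6.95, 6.68 and 6.36 under AZD and at 7.26, 6.64 and 6.60 under Ento+AZD. In DG-75, GNB3 stood at 6.36, 5.81 and 6.29 under DMSO, at 6.08, 5.87 and 6.21 under Ento, at 5.73, 5.90 and 6.22 under AZD and at 5.82, 5.94 and 5.85 under Ento+AZD. The SU-DHL-4 arrays split without overlap by the presence of AZD, whereas the DG-75 groups overlapped with each other. In SU-DHL-4, 0.938% of all rows had all 6 arrays with AZD below all 6 without it. GNB3 was higher on every SU-DHL-4 array than on any DG-75 array, though the lowest SU-DHL-4 array, with AZD, and the highest DG-75 array, with DMSO, both stood at 6.36.

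In SU-DHL-4, GNB3 fell by 1.25 under AZD (SE 0.16, limma adjusted p = 0.0312) and by 1.08 under Ento+AZD (SE 0.16, limma adjusted p = 0.00687). Against Ento alone, Ento+AZD lowered it by 1.20 (SE 0.16, limma adjusted p = 0.0451), and GNB3 was the 1 gene of the 10 called there, beside 0.0821% of all rows. RGS9 differed by -1.17 in that comparison (limma adjusted p = 0.0551). In DG-75 the differences of GNB3 were -0.20 under AZD and -0.28 under Ento+AZD (limma adjusted p = 0.660 and 0.449). The difference between the lines was -1.05 in the response to AZD, with a 95% confidence interval of -1.52 to -0.57 and an adjusted p of 0.285 in limma over all rows, and -0.80 in the response to Ento+AZD (limma adjusted p = 0.338). None of the 10 genes was called for a difference between the lines in a response, beside 0.00782%, 0% and 0.0352% of all rows in the responses to Ento, AZD and Ento+AZD in that order, and by limma 0, 2 and 2 of the 10 genes were at an unadjusted p under 0.05, beside 4.43%, 6.16% and 6.51% of all rows.

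The calls of GNB3 depended on the scaling, the fit and single arrays. Quantile normalization and subtraction of the array medians gave changes of -1.09 and -1.13 under AZD, past the fold minimum but not the p threshold, and -0.94 and -0.95 under Ento+AZD, under the fold minimum. The AZD call was lost without DMSO replicate 1, 2 or 3, AZD replicate 1 or 3 or Ento+AZD replicate 1. The Ento+AZD call was lost without DMSO replicate 2 or Ento+AZD replicate 2. The call against Ento was lost without any of the 3 Ento or the 3 Ento+AZD arrays, DMSO replicate 3 or AZD replicate 3. It was also lost without the replicate block, after quantile normalization and with the 2 treatments fitted alone, at limma adjusted p of 0.0903, 0.0757 and 0.0739. The AZD call was lost with the 2 treatments fitted alone as well (limma adjusted p = 0.0688). With an array or a replicate number left out, 6 of 15 alternatives kept the AZD call and 11 of 15 the Ento+AZD call. The call against Ento was kept by 4 of 15.

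GNB3 overlaps CDCA3, a gene for a trigger of mitotic entry, in the RefSeq annotation. How the probes of the array treat the overlap is not given in the sources used here, so that the value of GNB3 is uncertain. CDCA3 differed by -0.78 under AZD in SU-DHL-4 (limma adjusted p = 0.309) and fell by 1.41 under Ento+AZD (limma adjusted p = 0.0209). In DG-75, CDCA3 differed by -0.69 under AZD and by -0.79 under Ento+AZD (limma adjusted p = 0.162 and 0.0799). The levels of GNB3 and CDCA3 correlated at 0.449 over 24 arrays after subtraction of line means and at 0.128 within groups, and the part of CDCA3 in the values of GNB3 was not tested.

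Of the other 4 β subunit genes, none was called in any comparison. Among the 4, GNB4 differed by -0.92 under AZD in SU-DHL-4 (SE 0.30, limma adjusted p = 0.273) and by -0.93 under Ento+AZD against Ento there (limma adjusted p = 0.287). All 4 lay below 0 under AZD and under Ento+AZD in both lines, except that GNB5 turned to 0.06 and 0.03 under AZD in SU-DHL-4 after quantile normalization and after subtraction of array medians, and GNB2 to 0.001 and 0.012 in DG-75 after quantile normalization. The values as deposited had medians of -0.26 and -0.35 for SU-DHL-4 and of -0.32 and -0.37 in DG-75, beside medians over all rows of -0.08 and -0.08 for SU-DHL-4 and of -0.06 and -0.07 in DG-75. With both lines in 1 fit, GNB1, a widely expressed β subunit gene, differed by -0.40 under Ento+AZD (limma adjusted p = 0.00192), under the fold minimum.

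The RGS genes with known roles in B cells were not called under any exposure. RGS1, whose product limits responses to CXCL12 and CXCL13, stood at 4.83, 2.48 and 3.83 under DMSO in SU-DHL-4, at 4.91, 2.70 and 2.80 under Ento, at 4.33, 2.57 and 3.13 under AZD and at 3.82, 2.48 and 3.13 under Ento+AZD. In DG-75, RGS1 stood at 4.66, 5.99 and 4.98 under DMSO, at 4.81, 5.23 and 5.05 under Ento, at 5.40, 5.55 and 5.52 under AZD and at 6.64, 4.80 and 6.67 under Ento+AZD. Its difference under Ento+AZD was -0.57 for SU-DHL-4 and 0.83 for DG-75, and the difference between these responses was -1.40 (SE 0.57, limma adjusted p = 0.676). The 4 groups overlapped with each other in SU-DHL-4. The lowest of these arrays stood at 2.48, with no background level available, so that RGS1 cannot be called expressed or not expressed on them. In DG-75 the AZD arrays lay above the Ento arrays, and each group overlapped with the DMSO group.

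In SU-DHL-4, RGS1 varied more by replicate number than by treatment. Replicate 1 was the highest and replicate 2 the lowest in 4 of 4 treatments, with means of 4.47, 2.56 and 3.22 for the numbers 1, 2 and 3. The range of these means was 1.92, beside 0.57 for the range of the treatment means and a median range between replicate numbers of 0.21 over all rows. RGS2, which acts on Gαq, was lowest in replicate 2 in 4 of 4 treatments as well, with means of 7.10, 6.32 and 7.38. RGS16, which acts on Gαi and Gαq, had means of 6.41, 6.09 and 6.64, with replicate 2 lowest in 4 of 4 treatments. What the replicate numbers stand for in the laboratory is not given in the sources used here beyond biological replication. RGS2 and RGS16 correlated at 0.833 for SU-DHL-4 and at 0.269 in DG-75, over 12 arrays each. RGS10 was lowest in replicate 2 and GNB3 in replicate 3 in 4 of 4 treatments of SU-DHL-4, with ranges of the number means of 0.18 and 0.39, under their ranges of treatment means of 0.37 and 1.36. In DG-75 replicate 1 of RGS9 was the lowest in 4 of 4 treatments, with means of 4.31, 4.85 and 4.97. RGS13 was lowest there in replicate 3 in 4 of 4 treatments, with a range of 0.50 between the numbers and 0.42 between the treatments.

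**Figure D4:**
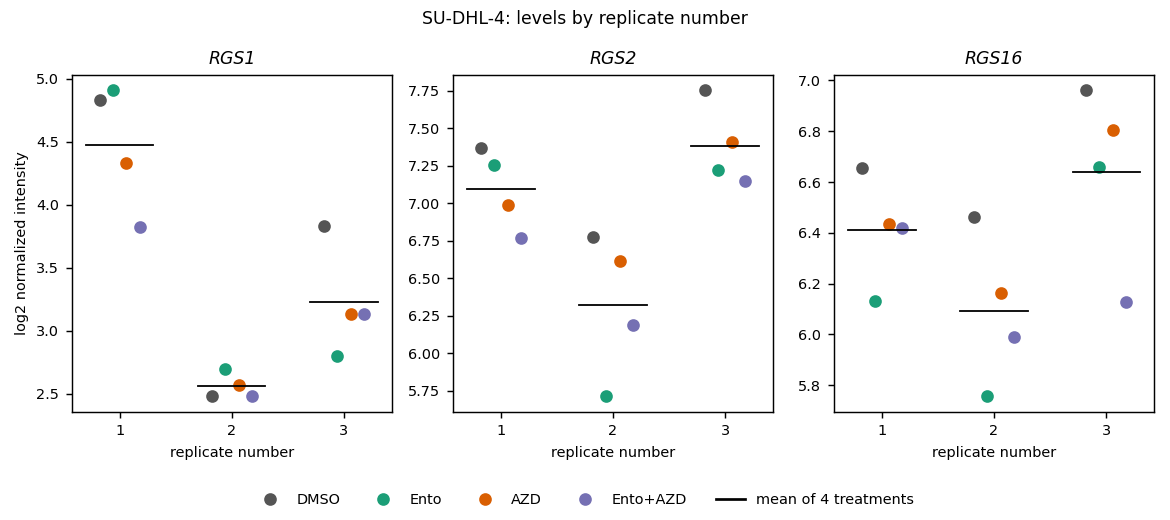
Levels of RGS1, RGS2 and RGS16 in SU-DHL-4 as log2 normalized intensity, arranged by replicate number on the x axis, with a point for each treatment and a bar for the mean of the 4 treatments. Replicate 2 was lowest in 4 of 4 treatments for each of the genes, and RGS1 ranged from 2.56 for the mean of replicate 2 to 4.47 for that of replicate 1.

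Ento alone gave an unadjusted p under 0.05 for 3 of the 10 genes in SU-DHL-4, among them RGS2, beside 8.59% of all rows. RGS2 differed by -0.57 (limma adjusted p = 0.475), RGS16 by -0.51 (limma adjusted p = 0.467) and RGS10 by -0.37 (limma adjusted p = 0.505). None of the 10 genes was called under Ento by limma, beside 0.0508% of all rows in SU-DHL-4, 0.00391% in DG-75 and 0.00782% over both lines. At an unadjusted p under 0.05 in limma were 3, 0 and 2 of the 10 genes, beside 8.59%, 2.81% and 6.36% of all rows. Adding Ento to AZD gave no call among the 10 genes either, with 0.0274% of all rows called for SU-DHL-4 cells and 0% for DG-75 cells, and none of the 10 was at an unadjusted p under 0.05 in limma, beside 7.03% and 4.03% of all rows. Adding AZD to Ento in DG-75 gave no call among them beside 0.657% of all rows. There 3 were at an unadjusted p under 0.05, beside 14.8% of all rows. These were RGS9 at -0.98 (limma adjusted p = 0.0457, under the fold minimum), GNA13 at -0.36 and RGS1 at 1.01. These comparisons share arrays, since each DMSO, Ento and AZD group served in several of them.

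Under AZD 10 of the 10 genes lay below 0 for SU-DHL-4 and 8 of 10 for DG-75, with a median over the 10 of -0.30 and -0.21. Under Ento+AZD the counts were 9 and 7. The counts moved with the scaling, since after subtraction of array medians 7 of 10 lay below 0 with AZD for SU-DHL-4 and 6 of 10 for DG-75. Between the scalings, RGS10, RGS13, RGS18 and RGS19 differed in sign for at least 1 of the exposures in SU-DHL-4, as did RGS2 and RGS18 in DG-75. RGS16 differed by -0.48 under AZD in DG-75 (limma adjusted p = 0.219) and RGS13 by -0.42 under Ento+AZD (limma adjusted p = 0.103).

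Most of the 10 genes differed between the lines. Under DMSO, 6 of them were higher in SU-DHL-4 and 1 was higher in DG-75 by the call rule, 7 of 10 beside 7.26% of all rows. RGS18, an RGS gene of platelets and haematopoietic cells that acts on Gαi and Gαq, stood at 7.84, 7.59 and 7.65 under DMSO for SU-DHL-4 and at 2.81, 2.10 and 2.21 in DG-75. The measured difference was 5.32 (SE 0.24, limma adjusted p = 1.2e-11). No background level was available for the DG-75 values, so that RGS18 cannot be called expressed or not expressed there and the measured difference may be less than that of its RNA. The mean of the 9 myeloid and platelet markers, among them the platelet genes ITGA2B, GP9, PF4 and PPBP, was 4.29 to 4.39 in SU-DHL-4 DMSO cells and 4.19 to 4.45 in DG-75 DMSO cells, and these ranges overlapped.

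RGS10, an RGS protein for Gαi that is abundant in immune cells, stood at 9.11, 9.07 and 9.12 in SU-DHL-4 DMSO cells and at 6.92, 6.64 and 6.33 in DG-75 DMSO cells. The difference was 2.47 (SE 0.27, limma adjusted p = 1.4e-06), or 5.55-fold. RGS13, which is restricted in B cells largely to the germinal centre, stood at 11.17, 11.17 and 11.11 for SU-DHL-4 and at 9.94, 9.81 and 9.38 in DG-75 and was 1.44 higher in SU-DHL-4 (SE 0.12, limma adjusted p = 7.1e-08). On all 12 SU-DHL-4 arrays, RGS10, RGS13, RGS18 and GNB3 stood above all 12 DG-75 arrays, 4 of the 10 genes beside 3.88% of all rows. GNB3 was 1.76 higher in SU-DHL-4 (limma adjusted p = 1.3e-07) and RGS9 was 1.70 higher (limma adjusted p = 8.2e-06). RGS19, a Gαi-directed RGS protein also known as GAIP, was 1.02 higher, with 6.69, 6.79 and 6.53 against 5.61, 5.75 and 5.60 (limma adjusted p = 0.000162). Its difference fell under the fold minimum, to 0.91, without SU-DHL-4 DMSO replicate 2, and likewise without DG-75 DMSO replicate 1 or 3. With an array or a replicate number left out, 23 of 27 alternatives kept the call of RGS19.

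RGS1 was the gene that was higher in DG-75, at a difference of -1.498 between SU-DHL-4 and DG-75 (SE 0.40, limma adjusted p = 0.0124), with SU-DHL-4 DMSO arrays at 2.48 to 4.83 and DG-75 DMSO arrays at 4.66 to 5.99. These ranges overlapped. No background level was available for the low SU-DHL-4 values, so that the measured difference may be less than that of RGS1 RNA. The call was lost without SU-DHL-4 DMSO replicate 2 (adjusted p = 0.0824) or DG-75 DMSO replicate 2 and without the replicate block (limma adjusted p = 0.0957), and the difference was -0.49 without replicate number 2. With an array or a replicate number left out, 23 of 27 alternatives kept the call of RGS1. RGS16 was 0.66 higher in SU-DHL-4 (limma adjusted p = 0.00848), under the fold minimum, and RGS2 differed by -0.44 (limma adjusted p = 0.187).

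RGS18, RGS21, RGS1, RGS13 and RGS2 follow each other in this order on chromosome 1 among the protein-coding genes of the RefSeq annotation. Under DMSO, RGS18 and RGS13 were called higher in SU-DHL-4 and RGS1 in DG-75, whereas RGS2 and RGS21 were not called. RGS21 stood at 1.88 to 2.81 over all arrays, so that no direction is read from it. After subtraction of line means over 24 arrays, RGS1 correlated at -0.095 with RGS13 and at 0.517 with RGS2, and RGS18 at 0.147 with RGS1, at -0.090 with RGS21 and at 0.202 with RGS13.

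**Figure D5:**
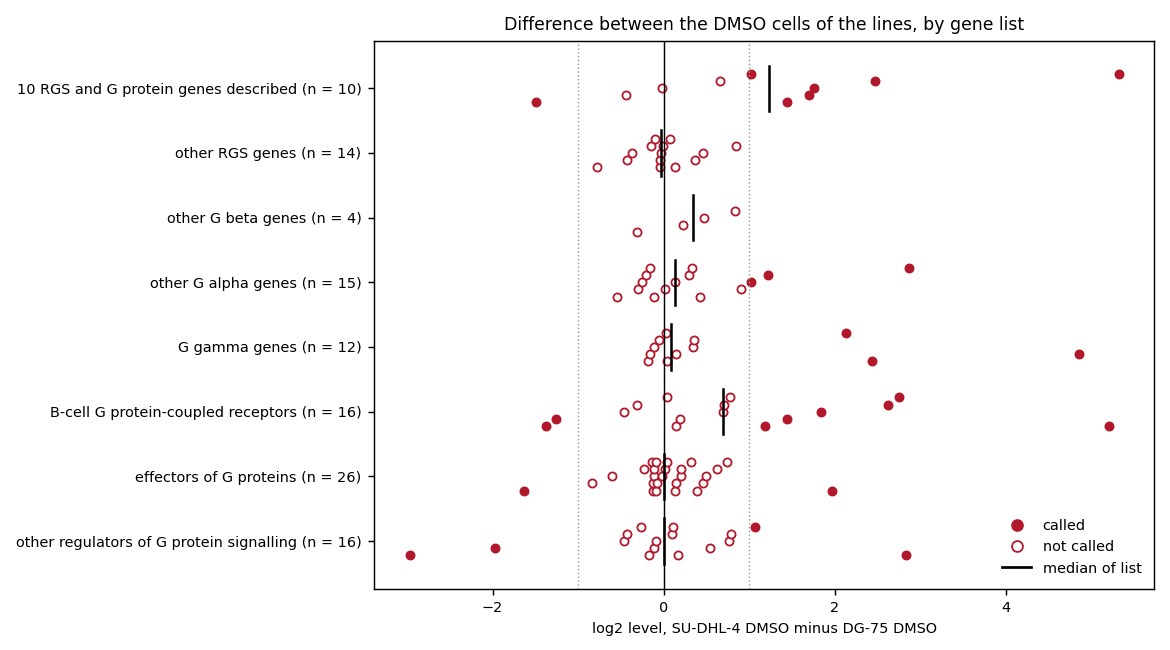
Difference in log2 level between DMSO cells of SU-DHL-4 and DG-75 on the x axis for each gene of 8 lists, with filled points for called genes, dotted lines at a fold change of 2 and a bar for the median of each list. The 10 genes described, selected with these levels known, have 7 filled points and a median of 1.23. The other 14 RGS genes have 0 filled points, at low levels with a median gene mean of 2.998 over the SU-DHL-4 arrays and of 2.924 over the DG-75 arrays.

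The rest of the pathway was given by 7 lists with 103 genes, put together with earlier results of these arrays known. None of the other 14 RGS genes was called in any comparison, including the DMSO levels of the lines, where 7.26% of all rows were called. RGS3 came closest there, at 0.84 higher in SU-DHL-4 (limma adjusted p = 0.000843). Of the other 15 α subunit genes, 3 were called higher in DMSO cells of SU-DHL-4, GNAZ by 2.87, GNAI2 by 1.22 and GNA12, the closest relative of GNA13, by 1.02. Among 12 γ subunit genes 3 were higher there, GNG7 by 4.85, GNGT2 by 2.43 and GNG2 by 2.13. The calls in both lists stand beside 7.26% of all rows called for the DMSO levels.

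Of the 16 G protein-coupled receptors of B cells, 6 were called higher in DMSO cells of SU-DHL-4 and 2 lower, 8 of 16 beside the same 7.26%. GPR18 was 5.20 higher, and CXCR5, the receptor that guides B cells into follicles, was 2.62 higher. CXCR4, the CXCL12 receptor, differed by -1.37 and P2RY10 by -1.26. Of the receptors that couple to Gα13, S1PR2 differed between the lines by 0.15 and P2RY8 by 0.18, with limma adjusted p of 0.474 and 0.285. Under AZD in DG-75, S1PR2 differed by -0.50 (limma adjusted p = 0.114), and under Ento+AZD in DG-75, P2RY8 differed by -0.56 (limma adjusted p = 0.0378, under the fold minimum). S1PR2 differed by -0.49 under Ento+AZD in DG-75, and by -0.265 under AZD and -0.249 under Ento+AZD in SU-DHL-4. Under Ento alone S1PR2 differed by 0.31 in SU-DHL-4 and by 0.16 in DG-75. ARHGEF1, which links Gα13 to RHOA, differed by 0.14 under AZD in SU-DHL-4 and by 0.01 in DG-75. These genes were singled out for their roles beside GNA13, and not every exposure is given for P2RY8 and ARHGEF1.

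Under Ento+AZD, 3 of the 16 receptors were called in DG-75 and 0 in SU-DHL-4 by limma, beside 0.833% and 1.19% of all rows. Of the 3, CCR7 alone was called for the difference between the lines, beside 0.0352% of all rows. S1PR1, the receptor for exit into lymph and blood, rose by 1.34 (limma adjusted p = 0.0383), from 3.54, 4.11 and 4.23 under DMSO to 5.93, 4.53 and 5.46. CCR7, which guides cells to the T-cell zone, rose by 1.37 (limma adjusted p = 0.0162), and P2RY10 fell by 1.04 (limma adjusted p = 0.0221). The DMSO and Ento+AZD arrays of S1PR1 and of P2RY10 did not overlap, and those of CCR7 did. Of the 16 other regulators, 1 was called in SU-DHL-4 under Ento+AZD. GPSM2, which holds Gαi in its GDP form and orients the mitotic spindle, fell by 1.23 in SU-DHL-4 (limma adjusted p = 0.0288) and by 1.06 with both lines in 1 fit (limma adjusted p = 0.00109). Of the 26 effectors none was called under an inhibitor by limma, beside 0.833% of all rows in DG-75 and 1.19% in SU-DHL-4 under Ento+AZD. For the DMSO levels of the lines 2 of 26 were called, a share near the 7.26% of all rows. These were PIK3CG, a PI3-kinase subunit driven by βγ dimers, at 1.96 higher in SU-DHL-4, and ADCY9, an adenylyl cyclase, at -1.63. Of the 16 regulators 4 were called for the DMSO levels, beside 7.26% of all rows. The receptor kinase genes GRK3 and GRK5 were 2.83 and 1.07 higher in SU-DHL-4 DMSO cells, and RIC8B, a chaperone of α subunits, differed by -2.97 and PLCL2 by -1.97.

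The mean level of the B-cell markers was higher on the DG-75 arrays with AZD, where RGS9 and GNA13 stood lower. The mean of the 7 markers lay between 8.40 and 8.79 on the DG-75 arrays without AZD and between 8.89 and 9.33 on those with it, and the ranges of this mean did not overlap. Of the 7 markers 0 were called under AZD by limma and 1, CD79B, under Ento+AZD, at 1.03 higher, beside 0.18% and 0.833% of all rows. In SU-DHL-4 the same mean lay between 9.69 and 10.28 without AZD and between 9.71 and 10.13 with it, and RGS9 was lower there too. Of the 6 germinal centre markers, 6 lay below 0 under AZD and under Ento+AZD in DG-75, with medians of -0.43 and -0.41 and with no call. Under Ento+AZD the count was 5 after quantile normalization and after subtraction of array medians. Their mean lay between 8.44 and 8.87 on the DG-75 arrays without AZD and between 7.78 and 8.58 on those with it, which overlapped, and between 8.50 and 8.77 and between 8.16 and 8.85 on the SU-DHL-4 arrays. The part of both marker lists in the values of RGS9 and GNA13 was not tested.

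Among all genes, those whose levels were most like the 3 members with the widest spread of group means were listed, by Pearson correlation over 24 arrays after subtraction of line means. RGS9 was most like APOBEC3C (0.924), BLM (0.921) and SENP1 (0.918). GNB3 was most like PTMS (0.866), SLC7A7 (0.855) and CARMIL2 (0.845), and CARMIL2 reached 0.376 within DG-75. RGS1 was most like RNVU1-1 (0.819), DDIT3 (0.803) and RNVU1-18 (0.798), which include a stress-response transcription factor gene and variant U1 small nuclear RNA genes. The spread of group means of RGS1 was 0.33, beside a pooled SD of 0.86 between replicates. Its likeness to these genes is therefore not read as a shared response to the inhibitors.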

How the data were processed

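The deposited values were log2 expression values of 24 Clariom D arrays, made by the authors with limma and RMA, which corrects the background, equalizes the arrays and summarises probes, with probes mapped to genes through affycoretools and the Clariom D annotation package. Versions and the genome build are not given in the sources used here. Labels gave groups and replicate numbers. The members and gene lists were chosen with earlier results of these data known. Within each line, limma 3.58.1 in R 4.3.3 fitted the 4 treatments with replicate number as a batch term. Fits of both lines added a line term or, for differences between the lines, used all 8 groups, with replicate number within line. Adjustment over 25575 rows followed Benjamini and Hochberg. The text names the 10 members, called genes of the lists, genes with a stated role beside a member, and the 3 genes most like each of the 3 members with the widest spread. All 10 members matched RefSeq symbols, and 9 had a promoter entry. The calculations were tested on simulated data. P-values measure the spread between 3 biological replicates of established lines.

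The replicate numbers were checked as pairs. Deviations from group means correlated at a median of 0.15 between arrays of the same number in SU-DHL-4 (-0.111 to 0.394) and of 0.04 in DG-75 (-0.355 to 0.344). Between arrays of different numbers the medians were -0.069 in SU-DHL-4 (-0.286 to 0.108) and -0.014 in DG-75 (-0.409 to 0.362). Arrays of the same number were thus more alike in SU-DHL-4, with overlapping ranges, whereas the numbers do not clearly pair the arrays of DG-75. The term was kept because the study's methods include a batch. Alternatives are given in the closing section.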

Additional observations from a re-analysis of the deposited data

Results flagged for a closer look

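CCR7, the receptor that guides lymphocytes to the T-cell zone, differed between the lines in its response to Ento+AZD by -1.94 (SU-DHL-4 minus DG-75, limma adjusted p = 0.0126 for the interaction over all rows). In SU-DHL-4, CCR7 stood at 4.56, 4.24 and 4.60 under DMSO and at 3.85, 4.03 and 3.80 under Ento+AZD. In DG-75 it stood at 4.71, 3.69 and 4.90 under DMSO and at 6.26, 4.71 and 6.43 under Ento+AZD, where replicate 2 was the lowest in both groups. Under Ento alone it stood at 4.12, 3.61 and 4.58 in SU-DHL-4 and at 5.67, 4.82 and 5.44 in DG-75, and the difference between the lines in that response was -1.24 (limma adjusted p = 0.536). No other gene of the lists met this test.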

How the results depend on the processing

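No member that was called changed direction under any alternative. With both lines in 1 fit, RGS9 was called under 34 of 34 alternatives, at -1.20 to -1.03 under AZD and -1.42 to -1.22 under Ento+AZD, and without the fold minimum 3 members passed in each of these comparisons (RGS9, GNB3 and GNA13). Within a line the number of called members moved. Under AZD in SU-DHL-4 it was 2, and it was 1 without the replicate block (GNB3, with RGS9 at an adjusted p of 0.0709) and 0 after quantile normalization, after subtraction of array medians and with the 2 treatments fitted alone, while all rows called went from 46 to 9, 0, 0 and 0. Under Ento+AZD in SU-DHL-4 it was 2, and 1 (RGS9) with either other scaling. For Ento+AZD against Ento in SU-DHL-4 it was 1, and 0 without the replicate block, after quantile normalization and with the 2 treatments fitted alone, and 2 (RGS9 and GNB3) with array medians subtracted, rows under the median left out, a trended robust prior variance or 1 fit of all arrays. In DG-75 it was 0 under AZD and 1 (RGS9) with rows under the median left out, a trended prior variance or 1 fit of all arrays, where all rows called went from 46 to 98, 155 and 122, and it was 0 for Ento+AZD against Ento and 1 (RGS9) without the fold minimum. With an array or a replicate number left out, the counts ranged from 0 to 2 for the 3 comparisons of SU-DHL-4 and from 0 to 1 for AZD against DMSO, Ento+AZD against DMSO and Ento+AZD against Ento in DG-75. In the DMSO levels of the lines, 5 to 8 members were called, and RGS1 lost its call without the replicate block (adjusted p = 0.0957). The replicate block changed no other call of a member. With 3 arrays per group and no detection values, small changes and low levels are beyond these data. Where a call was lost the cause was not tested.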
